A study of Mus musculus with 12 samples.

Results

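The 9 genes described here, chosen by name, are 8 of the interleukin-1 (IL-1) family and 1 of interleukin-23 (IL-23): the ligands Il1a, Il1b, Il18 and Il33, the antagonist Il1rn, the receptor chains Il1r1, Il1rl1 and Il1rap, and Il23a, a subunit of IL-23. All 9 were found among the 55487 genes of the count table. SCC7 is a squamous carcinoma cell line of the mouse, and its RNA was sequenced 24 h after the cells were moved to medium conditioned (CM) by macrophages grown from bone marrow. For TAM CM, named for tumour-associated macrophages, the macrophages had been kept for 24 h in 75% SCC7-conditioned medium. For M2 CM they had received interleukin-4 at 20 ng/ml, for M1 CM interferon-gamma at 20 ng/ml, each for 24 h, and for M0 CM control medium alone. Each medium had 3 libraries, 12 in all, the genotype is labelled wild type throughout, and all 4 groups share the macrophage source, so no group is SCC7 cells in plain medium. The sources used here do not state if the macrophages were washed free of cytokine or SCC7 medium before their own medium was taken. No label states that replicate libraries are separate cultures, so a p-value here measures the spread between libraries alone, which may be technical.

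IL-1 alpha and IL-1 beta bind the receptor IL1R1, IL-33 binds ST2 (the product of Il1rl1), and both receptors need the shared accessory chain IL1RAP to signal through MyD88 and IRAK kinases to NF-kappa B. The product of Il1rn occupies IL1R1 without signalling, and a soluble form of ST2 binds IL-33 without signalling. IL-23 is a dimer of the Il23a product, p19, with the p40 chain encoded by Il12b, and signals through IL23R and IL12RB1 to JAK2, TYK2 and STAT3.

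Library totals ran from 18996937 to 22596630 counts, and 14509 genes passed the filter on low counts and were tested with edgeR's quasi-likelihood test, with adjustment over all of them and a threshold of 0.05 for a call. Levels are given as CPM, the count relative to the scaled total of its library, and 1 CPM is about 20.8 counts in a library. The third M2 CM library is labelled with a melanoma as its cell type, where the other 11 libraries are labelled squamous carcinoma. The 7 melanocyte markers, nearly all of their sum Mitf, gave 11.03 to 12.78 CPM in TAM CM, 5.57 to 7.34 CPM in M2 CM, 9.81 to 12.99 CPM in M1 CM and 7.21 to 9.31 CPM in M0 CM. The third M2 CM library was at 6.80 CPM, with 6 counts over the markers other than Mitf, where the other 11 libraries had 1 to 12. The single count of Tyr in the data was in the second M2 CM library. For Il1rl1, Il1rap, Il1r1 and Il18 the difference between M2 CM and M0 CM is also given without the third M2 CM library. For the other differences of the 9 genes, a call that changed without it is stated. Most M2 CM values of other genes are given only with it. Of the 11 genes listed as squamous epithelial markers, Krt8 and Krt18 had the highest levels in all groups. Krt5, Krt14 and Cdh1 had at most 5 counts over a group, and Krt6a and Epcam had 0. In bulk RNA, fewer cells of a type and less RNA per cell cannot be told apart.

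The windows around the annotated starts of 4 of these genes are shown because these genes are the receptor chains and the antagonist whose RNA changed between media. Il1rl1 rose in all 3 other media against M0 CM, Il1rn rose with it in TAM CM and M1 CM, and Il1r1 and Il1rap rose together in M2 CM. Each window runs from 250 bases before to 50 bases after a start in the RefSeq annotation of GRCm38.p6, 5′ to 3′ on the + strand, on which all 4 genes lie. The Il1rl1 windows are chr1:40429320-40429619 and chr1:40439379-40439678, the Il1rn window is chr2:24336610-24336909, the Il1r1 window is chr1:40266336-40266635 and the Il1rap window is chr16:26581455-26581754. Of the 2 Il1r1 windows and the 3 Il1rn windows, only the one with a motif match is shown for each gene, and the others held none. Capitals mark matches to the motifs searched.
Il1rl1, upstream start: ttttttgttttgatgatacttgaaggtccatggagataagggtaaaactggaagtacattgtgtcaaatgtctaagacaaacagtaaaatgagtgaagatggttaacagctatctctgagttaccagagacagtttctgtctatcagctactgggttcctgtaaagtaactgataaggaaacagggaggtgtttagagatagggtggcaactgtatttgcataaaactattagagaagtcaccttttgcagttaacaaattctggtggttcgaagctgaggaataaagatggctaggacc
Il1rl1, downstream start: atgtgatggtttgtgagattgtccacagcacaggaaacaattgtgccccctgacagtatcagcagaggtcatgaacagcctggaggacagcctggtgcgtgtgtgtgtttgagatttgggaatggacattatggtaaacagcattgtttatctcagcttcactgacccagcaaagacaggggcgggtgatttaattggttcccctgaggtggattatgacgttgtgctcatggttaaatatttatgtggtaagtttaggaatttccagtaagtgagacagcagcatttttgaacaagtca
Il1rn: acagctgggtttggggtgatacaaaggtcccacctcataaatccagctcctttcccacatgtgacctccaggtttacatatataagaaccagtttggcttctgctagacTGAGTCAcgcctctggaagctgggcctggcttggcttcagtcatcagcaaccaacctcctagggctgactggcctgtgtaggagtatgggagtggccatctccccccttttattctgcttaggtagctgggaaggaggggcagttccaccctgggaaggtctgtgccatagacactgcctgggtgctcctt
Il1r1: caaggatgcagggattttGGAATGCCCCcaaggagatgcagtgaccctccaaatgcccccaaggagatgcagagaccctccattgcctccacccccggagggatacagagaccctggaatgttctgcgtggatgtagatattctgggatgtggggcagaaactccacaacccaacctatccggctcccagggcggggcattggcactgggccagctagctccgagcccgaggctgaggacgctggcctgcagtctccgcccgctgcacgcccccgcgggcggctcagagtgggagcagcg
Il1rap: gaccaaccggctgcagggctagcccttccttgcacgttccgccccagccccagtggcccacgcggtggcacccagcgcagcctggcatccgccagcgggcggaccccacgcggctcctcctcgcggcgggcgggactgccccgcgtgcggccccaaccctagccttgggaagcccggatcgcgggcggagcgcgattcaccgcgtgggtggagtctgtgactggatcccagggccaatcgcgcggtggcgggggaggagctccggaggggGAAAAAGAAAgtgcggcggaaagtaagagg

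The 4 motifs were searched on both strands: TTCNNNGAA, the GAS element bound by STAT dimers, TGANTCA for AP-1, the interferon-stimulated response element (ISRE, read as GAAA, any 2 bases and GAAA), and the kappa B consensus. Among 32851 windows of the same length, 8.3% hold the GAS letters, 7.81% the AP-1 letters, 3.44% the ISRE and 8.46% the kappa B consensus. RefSeq windows were found for 8 of the 9 genes, 13 windows in all. The shown Il1rn window holds AP-1 letters 141 bases before the start, the shown Il1r1 window holds a kappa B match 232 bases before, and the Il1rap window holds an ISRE match 20 bases after. Il1a, which is not shown, has AP-1 letters 12 bases before its start. Neither Il1rl1 window holds any of the 4 motifs, which says only that these letters are not in these windows. No matches overlapped each other, and the deposited counts do not tell which start a transcript came from.

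Most counts of the 9 genes fell on the receptors, and the receptor chains differed in the order of media. Il1rl1 had the highest level per kilobase of exon of the 9 genes in every group. Il1r1 and Il1rap were highest in M2 CM, Il1rn and Il23a were highest in TAM CM, and Il18 was lower in TAM CM and M2 CM than in M0 CM. The 2 ligands of IL1R1 were barely detected.

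**Figure D1:**
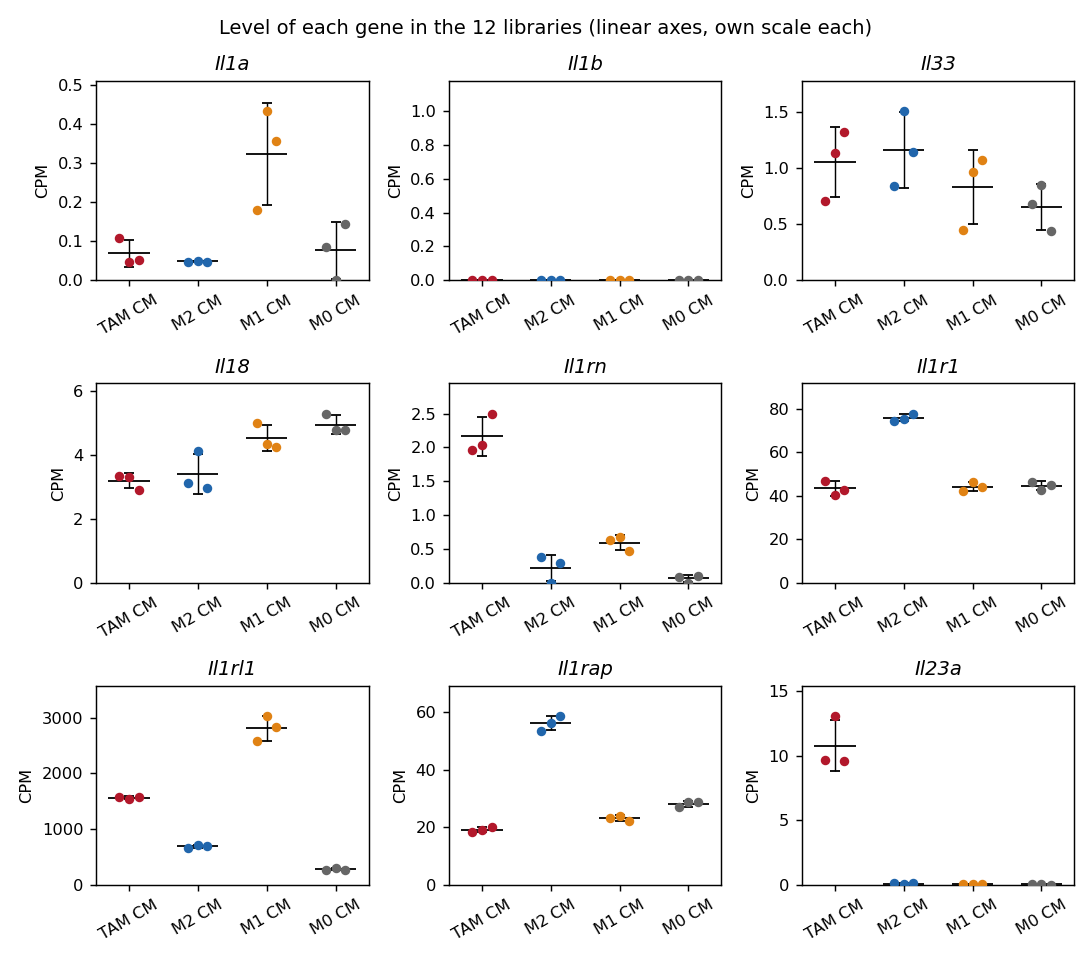
Level of the 9 genes in CPM (linear axes from 0, a scale for each panel) in the 12 libraries, by medium; points are libraries, the long bar is the mean of 3 and the whiskers are the SD. Il1rl1 reaches 3025 CPM in M1 CM, Il23a stands at 9.63 to 13.06 CPM in TAM CM and under 0.15 CPM elsewhere, and Il1b is at 0 in every library.

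Il1rl1 encodes ST2, the receptor of IL-33 (mm10 chromosome 1, 40429570 to 40465415, + strand, 6894 exon bases). It stood at 1583, 1537 and 1575 CPM in TAM CM, 667, 720 and 703 CPM in M2 CM, 2580, 3025 and 2838 CPM in M1 CM, and 272, 303 and 271 CPM in M0 CM. No library of one group overlapped with another group, and the order was M1 CM, TAM CM, M2 CM and M0 CM, with every neighbour in that order apart. It rose 5.55-fold in TAM CM against M0 CM (log2 2.47 ± 0.064 SE, adjusted p = 3.16e-11). The rise was 2.47-fold in M2 CM against M0 CM (log2 1.30 ± 0.063, adjusted p = 3.84e-08) and 9.98-fold in M1 CM against M0 CM (log2 3.32 ± 0.066, adjusted p = 6.47e-12). TAM CM was 2.25-fold above M2 CM (adjusted p = 1.88e-08) and at 0.556 of the level of M1 CM (adjusted p = 2.98e-07). M2 CM was at 0.248 of the level of M1 CM (adjusted p = 2.96e-10). Without the third M2 CM library the rise in M2 CM against M0 CM was 2.46-fold (adjusted p = 8.72e-07; range over the alternatives 1.53e-146 to 1.21e-06).

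Per kilobase of exon, Il1rl1 stood at 227 CPM in TAM CM, 101 CPM in M2 CM, 408 CPM in M1 CM and 40.9 CPM in M0 CM. Among 14485 genes with a length it ranked 182 in TAM CM, 456 in M2 CM, 82 in M1 CM and 1248 in M0 CM. The annotation lists 5 coding transcripts. The gene is known to give a membrane and a soluble form of ST2, which counts per gene do not tell apart. The 7 markers of mast cells, which are known to carry ST2, were at 0 apart from 1 count of Cma1 in TAM CM.

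Il1rap encodes the accessory chain shared by IL1R1 and ST2 (chromosome 16, 26581704 to 26730117, + strand). Its level was 18.4, 19.1 and 20.2 CPM in TAM CM, 53.6, 56.4 and 58.6 CPM in M2 CM, 23.4, 24.0 and 22.2 CPM in M1 CM, and 26.9, 28.8 and 28.7 CPM in M0 CM. The groups did not overlap, in the order M2 CM, M0 CM, M1 CM and TAM CM. It fell in TAM CM against M0 CM (log2 -0.55 ± 0.067, adjusted p = 5.5e-10), and in M1 CM against M0 CM by a smaller amount (log2 -0.28 ± 0.065, adjusted p = 0.000316). In M2 CM it was 2.00-fold above M0 CM (log2 1.00 ± 0.059, adjusted p = 1.79e-19), and 1.95-fold above it without the third M2 CM library (adjusted p = 3.13e-16; range over the alternatives 3.43e-55 to 1.22e-15). TAM CM was below M2 CM (log2 -1.54 ± 0.063, adjusted p = 4.57e-27) and below M1 CM (log2 -0.27 ± 0.069, adjusted p = 0.000622), and M2 CM was above M1 CM (log2 1.27 ± 0.061, adjusted p = 7.19e-24). So Il1rap and Il1rl1 moved in opposite directions in TAM CM and M1 CM and in the same direction in M2 CM, each against M0 CM. The sum of the 11 squamous epithelial markers, nearly all of it Krt8 and Krt18, took the same order of media as Il1rap, with 99.2 to 110 CPM in TAM CM, 693 to 772 CPM in M2 CM, 182 to 185 CPM in M1 CM and 377 to 408 CPM in M0 CM. Other members did not: Jup averaged 8.73 ± 0.593 CPM in TAM CM, 13.6 ± 0.295 CPM in M2 CM, 14.1 ± 0.915 CPM in M1 CM and 15.8 ± 0.579 CPM in M0 CM, Trp63 and Dsp were also highest in M0 CM, and Sfn was highest in TAM CM. Of the 11 genes 2 were at 0 in TAM CM, 4 in M2 CM, 3 in M1 CM and 2 in M0 CM, and their part in the result was not tested. An antisense gene, Gm20319, overlaps Il1rap, and whether strand was used in counting is not stated in the sources used here.

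Il1r1 encodes the signalling receptor of IL-1 alpha and IL-1 beta (chromosome 1, 40225080 to 40317257, + strand). It had 47.0, 40.3 and 42.8 CPM in TAM CM, 74.5, 75.5 and 77.7 CPM in M2 CM, 42.1, 46.4 and 44.2 CPM in M1 CM, and 46.3, 42.4 and 45.1 CPM in M0 CM. The M2 CM libraries were all above the other 9, and those 9 overlapped. M2 CM was 1.70-fold above M0 CM (log2 0.77 ± 0.052, adjusted p = 3.34e-17), and 1.68-fold above it without the third M2 CM library (adjusted p = 2.85e-14; range over the alternatives 1.12e-47 to 1.57e-13). M2 CM was also above M1 CM (log2 0.78 ± 0.053, adjusted p = 4.71e-18), and TAM CM was below M2 CM (log2 -0.81 ± 0.053, adjusted p = 6.35e-19). Against M0 CM the difference was log2 -0.045 ± 0.056 in TAM CM (adjusted p = 0.48) and -0.014 ± 0.055 in M1 CM (adjusted p = 0.848), and TAM CM differed from M1 CM by log2 -0.03 ± 0.056 (adjusted p = 0.646). With library sizes alone in place of scaled sizes, the TAM CM difference from M0 CM was called (log2 -0.14, adjusted p = 0.0206; range over the alternatives 0.0206 to 0.923). The predicted gene Gm38070 overlaps Il1r1.

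Ratios of receptor RNA to accessory chain RNA followed from these levels. They use the exon length of each gene over all its transcripts, and Il1rl1 counts do not tell membrane from soluble ST2. Per kilobase, Il1rl1 stood above Il1rap by a factor of 142, 133 and 128 in the 3 TAM CM libraries, 20.5, 21.1 and 19.8 in M2 CM, 182, 207 and 211 in M1 CM, and 16.7, 17.3 and 15.6 in M0 CM. Those ratios did not overlap between any groups. The ratio of Il1r1 to Il1rap was 4.56, 3.77 and 3.78 in TAM CM, 2.48, 2.39 and 2.37 in M2 CM, 3.22, 3.44 and 3.56 in M1 CM, and 3.07, 2.63 and 2.81 in M0 CM. Here too the groups were apart, with M2 CM lowest, where Il1rap was 2.00-fold and Il1r1 1.70-fold above M0 CM.

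**Figure D2:**
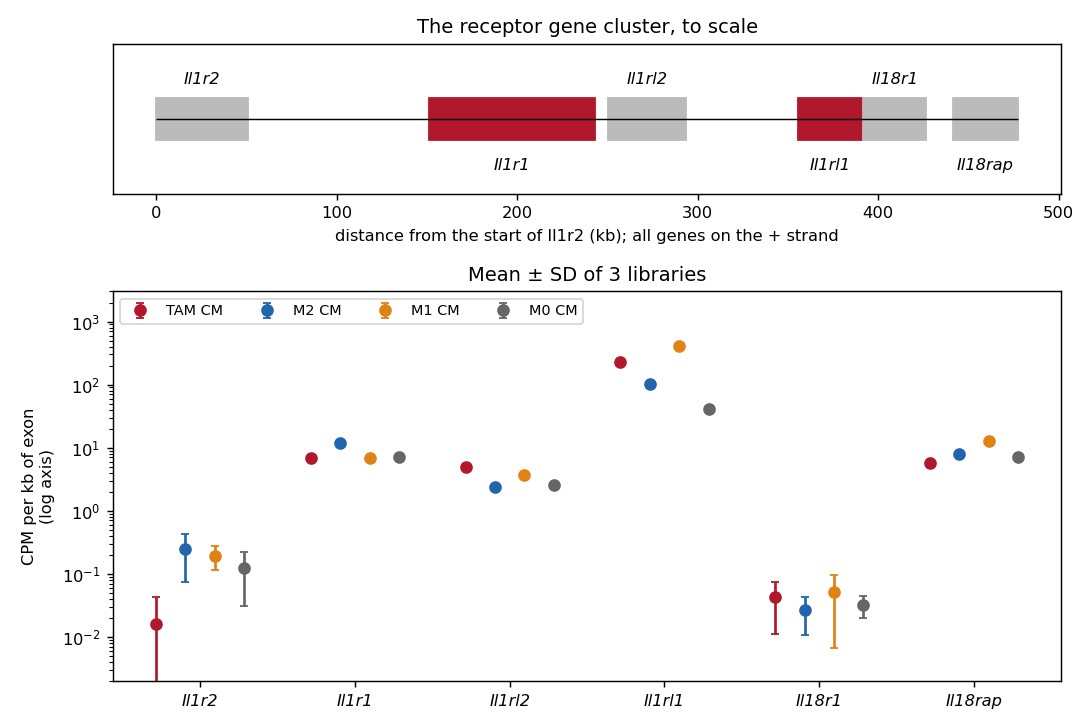
Top, the 6 receptor genes of the cluster on chromosome 1 to scale, as distance in kilobases from the start of Il1r2, with Il1r1 and Il1rl1 in red; bottom, mean level of each in CPM per kilobase of exon (log axis) with the SD of 3 libraries, whose lower end is off the axis where it reaches 0. Il1rl1 stands at 40.9 to 408 CPM per kilobase between its direct neighbours, and Il18r1 stays below 0.06.

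Il1r1 and Il1rl1 lie in a cluster of 6 related receptor genes, all on the + strand, whose levels differed widely between neighbours. Il18r1, a chain of the IL-18 receptor, starts 136 bases after the end of Il1rl1 and had only 1 to 11 counts in any library. Il18rap, its partner chain, averaged 37.9 ± 1.89 CPM in TAM CM, 54.5 ± 2.33 CPM in M2 CM, 84.7 ± 0.727 CPM in M1 CM and 47.8 ± 1.03 CPM in M0 CM. Against M0 CM it rose in M1 CM (log2 0.83 ± 0.048, adjusted p = 1.53e-20) and M2 CM (log2 0.19 ± 0.05, adjusted p = 0.00177), as Il1rl1 did, and fell in TAM CM (log2 -0.33 ± 0.052, adjusted p = 1.9e-07), where Il1rl1 rose. Il1rl2, the IL-36 receptor chain between Il1r1 and Il1rl1, averaged 33.1 ± 2.21 CPM in TAM CM, 16.0 ± 1.48 CPM in M2 CM, 24.8 ± 1.09 CPM in M1 CM and 17.4 ± 1.13 CPM in M0 CM. It rose in TAM CM (log2 0.92 ± 0.075, adjusted p = 1.59e-15) and M1 CM (log2 0.51 ± 0.077, adjusted p = 2.02e-07) and was not called in M2 CM (log2 -0.13 ± 0.082, adjusted p = 0.221), each against M0 CM. Il1r2, which encodes the decoy receptor of IL-1, had 0 to 2 counts in a TAM CM library, 5 to 17 in M2 CM, 5 to 11 in M1 CM and 3 to 9 in M0 CM, too few to pass the filter. Without a filter it was called lower in TAM CM than in M2 CM (adjusted p = 0.000171), M1 CM (adjusted p = 0.00128) and M0 CM (adjusted p = 0.021).

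Il1rn encodes the IL-1 receptor antagonist (chromosome 2, 24336853 to 24351494, + strand). It had 36, 45 and 49 counts in TAM CM (1.97, 2.03 and 2.50 CPM), 8, 0 and 6 counts in M2 CM (0.372, 0 and 0.285 CPM), 14, 14 and 9 counts in M1 CM (0.630, 0.673 and 0.460 CPM), and 2, 0 and 2 counts in M0 CM (0.0850, 0 and 0.0964 CPM). TAM CM was highest and M1 CM next, both apart from the other groups, while M2 CM and M0 CM overlapped. The rise in TAM CM against M0 CM was log2 4.995 ± 0.552 (adjusted p = 2.72e-11), and 130 against 4 counts give a ratio of 34.8 with an exact 95% binomial interval of 13.3 to 130, which covers counting error only. M1 CM was also above M0 CM (log2 3.13 ± 0.686, adjusted p = 0.000123; ratio 9.52, interval 3.42 to 36.8). TAM CM was above M2 CM (log2 3.24 ± 0.44, adjusted p = 7.2e-09) and above M1 CM (log2 1.86 ± 0.37, adjusted p = 1.79e-05). Over the alternatives the difference between TAM CM and M2 CM ran from log2 2.70 to 3.84, and was highest without the first M2 CM library.

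In M2 CM the Il1rn counts were few and spread, with 1 library at 0. Against M0 CM the gene was not called (log2 1.75 ± 0.833, adjusted p = 0.0915), but was called without the second M2 CM library (log2 2.30, adjusted p = 0.0161; range over the alternatives 0.0161 to 0.396). M2 CM was below M1 CM (log2 -1.38 ± 0.533, adjusted p = 0.0247). That call was lost without the first M1 CM library (log2 -1.33, adjusted p = 0.0595), the second M1 CM library (log2 -1.28, adjusted p = 0.0633) or the second M2 CM library (log2 -0.83, adjusted p = 0.172), and it was log2 -1.97 (adjusted p = 0.0106) without the first M2 CM library, over a range of 0.0106 to 0.172. Il1rn passed the filter through TAM CM, where it is high.

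Of the IL1R1 ligands, Il1b, encoding IL-1 beta, (chromosome 2, 129364570 to 129371139, - strand) had 0 counts in all 12 libraries, and 3 counts over a group would be 0.0499 CPM in TAM CM, 0.0480 CPM in M2 CM, 0.0480 CPM in M1 CM and 0.0466 CPM in M0 CM. Il1a, encoding IL-1 alpha (chromosome 2, 129299610 to 129309972, - strand), had 2, 1 and 1 counts in TAM CM, 1, 1 and 1 in M2 CM, 4, 9 and 7 in M1 CM, and 2, 0 and 3 in M0 CM. The M1 CM libraries were above all others. The 20 counts of M1 CM stood 4.12-fold above the 5 of M0 CM (exact interval 1.499 to 14.03, counting error only). Il1a did not pass the filter. Without a filter its difference between M1 CM and M0 CM was not called (log2 1.98, adjusted p = 0.104), nor that of TAM CM from M1 CM (log2 -2.17, adjusted p = 0.0632), while M2 CM was called below M1 CM (adjusted p = 0.0325), with 3 counts against 20. Gm14023 overlaps Il1a and Il1bos overlaps Il1b, both on the other strand.

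Il33 encodes IL-33, the ligand of ST2 (chromosome 19, 29925114 to 29960718, + strand). It had 13, 25 and 26 counts in TAM CM, 18, 30 and 24 in M2 CM, 10, 20 and 21 in M1 CM, and 16, 17 and 9 in M0 CM. All groups overlapped, and none of the 6 comparisons was called. Against M0 CM the differences were log2 0.70 ± 0.376 in TAM CM (adjusted p = 0.0948), 0.82 ± 0.369 in M2 CM (adjusted p = 0.0737) and 0.33 ± 0.39 in M1 CM (adjusted p = 0.507). Leaving out 1 library gave a call in TAM CM (without its first library, log2 0.90, adjusted p = 0.0431, range 0.0431 to 0.302) and in M2 CM (without its first library, log2 1.01, adjusted p = 0.0433, range 0.0433 to 0.297). Per kilobase, Il1rl1 exceeded Il33 by a factor of 934, 570 and 498 in TAM CM, 334, 200 and 258 in M2 CM, 2401, 1317 and 1106 in M1 CM, and 168, 150 and 261 in M0 CM, so in these cells the receptor's RNA was far above the ligand's in every library.

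Il18 encodes IL-18, which is made as a precursor and cut by caspase-1 (chromosome 9, 50554827 to 50581840, + strand). It stood at 3.33, 3.30 and 2.90 CPM in TAM CM, 3.11, 4.11 and 2.95 CPM in M2 CM, 4.99, 4.33 and 4.25 CPM in M1 CM, and 5.27, 4.77 and 4.77 CPM in M0 CM. TAM CM and M2 CM overlapped with each other and M1 CM with M0 CM, and the first pair of media lay below the second. It fell in TAM CM (log2 -0.64 ± 0.168, adjusted p = 0.000759) and in M2 CM (log2 -0.55 ± 0.165, adjusted p = 0.00623) against M0 CM. Without the third M2 CM library the M2 CM difference was log2 -0.46 (adjusted p = 0.0472; range over the alternatives 0.00228 to 0.0472). M1 CM differed from M0 CM by log2 -0.13 ± 0.158 (adjusted p = 0.53). TAM CM was below M1 CM (log2 -0.51 ± 0.17, adjusted p = 0.00735) and was not told apart from M2 CM (log2 -0.089 ± 0.177, adjusted p = 0.671).

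M2 CM was also below M1 CM in Il18 (log2 -0.42 ± 0.168, adjusted p = 0.0289). That call did not hold with DESeq2 (adjusted p = 0.052), with no filter (adjusted p = 0.0531), or without the first M1 CM library, the first M2 CM library or the third M2 CM library (adjusted p = 0.129, 0.104 and 0.138 in that order), over a range of 0.00846 to 0.138. Bco2 and Tex12 overlap Il18 on the other strand.

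Il23a encodes the p19 chain of IL-23 (chromosome 10, 128296139 to 128298752, - strand). It had 178, 289 and 189 counts in TAM CM (9.72, 13.1 and 9.63 CPM), 3, 1 and 3 in M2 CM, 2, 2 and 1 in M1 CM, and 1, 2 and 0 in M0 CM. TAM CM stood apart, and the other media were near the floor of detection and overlapped. The 656 counts of TAM CM against 3 in M0 CM give a ratio of 234 with an exact 95% interval of 79.8 to 1139, against 5 in M1 CM a ratio of 137 (58.2 to 422), and against 7 in M2 CM a ratio of 97.5 (47.1 to 243), with intervals for counting error only. The fitted rise was called in TAM CM against M0 CM (log2 7.69 ± 0.355, adjusted p = 6.33e-25), M1 CM (log2 6.98 ± 0.33, adjusted p = 2.24e-24) and M2 CM (log2 6.52 ± 0.313, adjusted p = 3.19e-24). Over the alternatives the rise against M0 CM ran from log2 7.18 to 8.57, and was highest without the second M0 CM library. No comparison among the other 3 media was called. Il23a passed the filter only through TAM CM.

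Il12b, whose p40 product pairs with p19, had 5, 13 and 9 counts in TAM CM, 0 in every M2 CM library, 1, 0 and 3 in M1 CM, and 0 in every M0 CM library. Its 27 counts in TAM CM were at least 9.64-fold above M0 CM and at least 9.36-fold above M2 CM, taking a floor of 3 counts over a group. Il12b was too low for the filter, and without a filter it was called in TAM CM against M0 CM (adjusted p = 3.68e-05), M2 CM (adjusted p = 4.47e-05) and M1 CM (adjusted p = 0.0131). Il12a, which pairs with p40 to form IL-12, had 0 counts in all TAM CM libraries, 0 to 2 in M2 CM, 0 in M1 CM and 0 to 3 in M0 CM. The IL-23 receptor gene Il23r had 0 counts in TAM CM, 0 to 1 in M2 CM, 0 to 2 in M1 CM and 1 to 3 in M0 CM, while Il12rb1, the other receptor chain, averaged 16.2 ± 1.15 CPM in TAM CM, 12.3 ± 0.926 CPM in M2 CM, 22.5 ± 0.879 CPM in M1 CM and 22.01 ± 0.975 CPM in M0 CM.

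Among macrophage markers Cd14 and Lyz2 were highest in TAM CM, as were Il1rn, Il23a and Il12b, while Cd68, Csf1r and Mrc1 were not. Lyz2 had 79 counts in TAM CM, 26 in M2 CM, 26 in M1 CM and 53 in M0 CM. Ptprc and Cx3cr1 were also highest in TAM CM, with only 6 counts each there. The 15 markers summed to 41.6 to 51.2 CPM in TAM CM, 22.7 to 25.3 CPM in M2 CM, 34.9 to 40.9 CPM in M1 CM and 23.4 to 24.3 CPM in M0 CM. Cd14 made up most of the sum, at 40.9 ± 3.81 CPM in TAM CM, 15.9 ± 1.09 CPM in M2 CM, 26.1 ± 2.89 CPM in M1 CM and 17.3 ± 0.898 CPM in M0 CM. Cd68 was lowest in TAM CM, at 2.89 ± 0.827 CPM in TAM CM, 5.03 ± 0.265 CPM in M2 CM, 6.99 ± 1.13 CPM in M1 CM and 3.89 ± 0.362 CPM in M0 CM. Csf1r had 8 counts in TAM CM, 23 in M2 CM, 33 in M1 CM and 20 in M0 CM, and Mrc1 had 44 in TAM CM, 119 in M2 CM, 162 in M1 CM and 44 in M0 CM. The sum was also higher in M1 CM than in M0 CM. Of the 15 genes, 5 had 0 counts in TAM CM, 5 in M2 CM, 5 in M1 CM and 6 in M0 CM. Tyrobp, C1qa, C1qb and C1qc had 0 counts in every group, Itgam at most 1 over a group, and Adgre1 and Ptprc at most 6. The part of macrophage RNA in the results was not tested.

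**Figure D3:**
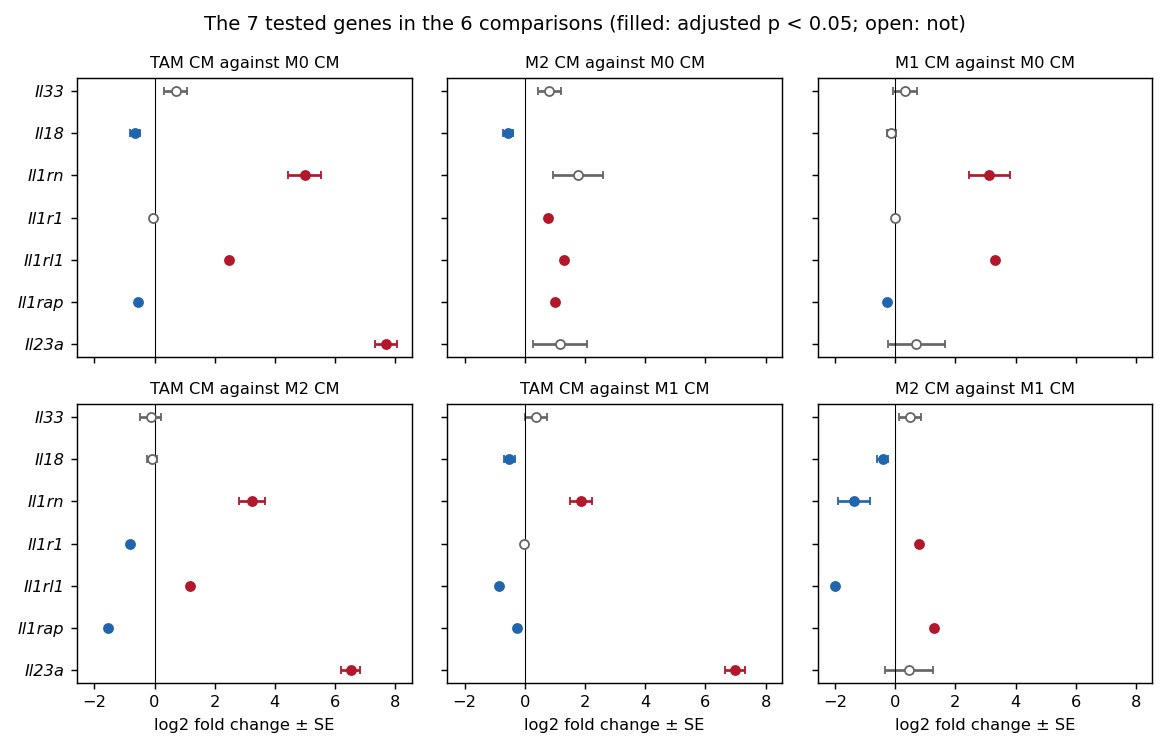
Log2 fold change with its SE for the 7 tested genes in the 6 comparisons, from edgeR; filled red points are called higher, filled blue points called lower (adjusted p under 0.05), and open points are not called. Il23a is at 7.69 in TAM CM against M0 CM, and Il1rap lies on the negative side in TAM CM and M1 CM and at 1.00 in M2 CM.

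Counted over the 9 genes, 7 were tested and Il1a and Il1b were not. Since Il1rn and Il23a passed the filter only through the media where they are high, the counts give no support of their own. In TAM CM against M0 CM 3 were called higher and 2 lower, where 35.1% of all tested genes were called higher and 34.9% lower. In M2 CM against M0 CM it was 3 and 1, with 21.0% and 18.5% of all genes. In M1 CM against M0 CM it was 2 and 1, with 27.7% and 25.6%. In TAM CM against M2 CM 3 were higher and 2 lower (34.3% and 34.1% of all genes), in TAM CM against M1 CM 2 and 3 (32.8% and 34.4%), and in M2 CM against M1 CM 2 and 3 (27.8% and 28.4%). The tested genes had a median log2 difference from M0 CM of 0.70 in TAM CM, 1.00 in M2 CM and 0.33 in M1 CM. The medians over all genes were 0.001 in TAM CM, -0.003 in M2 CM and 0.012 in M1 CM. The medians of the tested genes include Il1rn and Il23a, so they too give no support of their own. The middle gene was Il33, which was not called, in TAM CM and M1 CM, and Il1rap in M2 CM. Of the 21 differences between M2 CM and another medium, 20 kept their call or lack of one without the third M2 CM library, and the exception was Il18 against M1 CM. All 6 comparisons share libraries, the first 3 the M0 CM libraries. With library sizes alone the split of all genes turned to 2201 higher and 3653 lower in M2 CM against M0 CM, in place of 3042 and 2681, and to 3219 and 4626 in M1 CM against M0 CM, in place of 4023 and 3719.

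The genes whose pattern over the 12 libraries was most like each tested gene were taken among 10960 genes by Pearson's r of log2 CPM, which is a description, since libraries of a medium share their group. For Il23a they were Hdac4 (r = 0.996), Clcn3 (0.995) and Rheb (0.995), and Rheb averaged 276.7 CPM in TAM CM, 110.8 in M2 CM, 109.5 in M1 CM and 105 in M0 CM. For Il1rl1 they were Adamts14 (0.990), Tor3a (0.986) and Ttc39c (0.984), and Ttc39c averaged 143.5 CPM in TAM CM, 47.95 in M2 CM, 256.9 in M1 CM and 28.94 in M0 CM. Il1rap was closest to Masp1 (0.996), Pdlim5 (0.995) and Setdb1 (0.984), with Masp1 at 5.87 CPM in TAM CM, 42.5 in M2 CM, 8.60 in M1 CM and 10.6 in M0 CM. Il1r1 was closest to Bms1 (0.995), Eif2b1 (0.991) and Itgb1bp1 (0.985). Il1rn was closest to Pqlc1 (0.963), Prkx (0.958) and Zfp661 (0.957), Il18 to Fam114a1 (0.930), Qrfp (0.924) and Cyb561a3 (0.909), and Il33 to Zrsr2 (0.845), Cnot7 (0.804) and Eif4a2 (0.780). Since Il33 had only 9 to 30 counts in a library and was not called in any comparison, its most alike genes tell little.

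Other genes of the pathway were read in 6 lists, with counts of genes called higher and lower against M0 CM. Some list genes passed the filter only through media where they are high, so list counts and medians give no support of their own. Over all tested genes 35.1% were called higher and 34.9% lower in TAM CM, 21.0% and 18.5% in M2 CM, and 27.7% and 25.6% in M1 CM. Of the other IL-1 family ligands, 0 of 5 passed the filter. Il36a (listed as Il1f6), Il36b (Il1f8), Il36rn (Il1f5) and Il1f10 had no counts, and Il36g (Il1f9) had at most 4 in a library. Of the other receptors and binding proteins 4 of 8 were tested, with 1 higher and 3 lower in TAM CM, 2 and 0 in M2 CM, and 4 and 0 in M1 CM. Their medians on the log2 scale were -0.37 in TAM CM, 0.032 in M2 CM and 0.67 in M1 CM. The M2 CM count became 1 and 0 in 8 of the 19 alternatives, through Sigirr, an inhibitory receptor of the family, whose M2 CM difference of log2 0.18 had an adjusted p of 0.0405 (range over the alternatives 0.0234 to 0.181). Sigirr averaged 15.0 ± 0.882 CPM in TAM CM, 26.2 ± 0.336 CPM in M2 CM, 29.7 ± 2.22 CPM in M1 CM and 23.2 ± 1.37 CPM in M0 CM. It fell in TAM CM (log2 -0.63 ± 0.078, adjusted p = 6.49e-10) and rose in M1 CM (log2 0.36 ± 0.071, adjusted p = 2.4e-05). Il18bp, the soluble inhibitor of IL-18, averaged 3.03 ± 0.609 CPM in TAM CM, 3.75 ± 0.144 CPM in M2 CM, 29.1 ± 1.9 CPM in M1 CM and 4.06 ± 0.0924 CPM in M0 CM. Its rise in M1 CM was log2 2.84 ± 0.111 (adjusted p = 1.74e-27), and its fall in TAM CM (log2 -0.41, adjusted p = 0.0163) was lost without the first TAM CM library (adjusted p = 0.14; range over the alternatives 0.0033 to 0.14).

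All 18 genes of receptor signalling were tested. In TAM CM 11 were higher and 7 lower (35.1% and 34.9% of all tested genes), in M2 CM 4 and 2 (21.0% and 18.5%), near or below the share of all genes, and in M1 CM 10 and 3 (27.7% and 25.6%), with medians on the log2 scale of 0.20 in TAM CM, 0.005 in M2 CM and 0.19 in M1 CM. Irak2, a kinase of the receptor complex, averaged 5.43 ± 0.464 CPM in TAM CM, 9.10 ± 0.229 CPM in M2 CM, 25.7 ± 1.04 CPM in M1 CM and 9.81 ± 1.1 CPM in M0 CM, a fall in TAM CM (adjusted p = 5.88e-09) and a rise in M1 CM (adjusted p = 2.48e-18). Nfkb1, encoding the p105 precursor of the p50 subunit of NF-kappa B, stood at 122 ± 1.21 CPM in TAM CM, 568 ± 1.77 CPM in M2 CM, 168 ± 0.534 CPM in M1 CM and 167 ± 1.59 CPM in M0 CM. M2 CM thus carried the highest Nfkb1 level together with the highest Il1r1 and Il1rap levels. Tollip, an inhibitor of IRAK signalling, and Tab2, an adaptor of the TAK1 kinase, rose in TAM CM (log2 0.61 ± 0.042 and 0.75 ± 0.037, adjusted p = 2.14e-18 and 6.2e-24).

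Of the genes for processing and release 14 of 18 were tested, with 4 higher and 9 lower in TAM CM (35.1% and 34.9% of all tested genes), 2 and 5 in M2 CM (21.0% and 18.5%), and 8 and 4 in M1 CM (27.7% and 25.6%). Their medians on the log2 scale were -0.32 in TAM CM, -0.073 in M2 CM and 0.49 in M1 CM. The M2 CM count was 2 and 4 without the third M2 CM library. Casp1, encoding the protease that cuts the IL-1 beta and IL-18 precursors, averaged 35.5 ± 0.417 CPM in TAM CM, 48.6 ± 1.59 CPM in M2 CM, 253 ± 2.99 CPM in M1 CM and 63.6 ± 1.77 CPM in M0 CM. Gsdmd, whose product forms the pore for their release, averaged 104 ± 2.09 CPM in TAM CM, 151 ± 9.98 CPM in M2 CM, 363 ± 5.15 CPM in M1 CM and 165 ± 5.62 CPM in M0 CM. Casp1 and Gsdmd fell in TAM CM (log2 -0.84 ± 0.045 and -0.66 ± 0.039, adjusted p = 3.34e-22 and 1.46e-20) and rose in M1 CM (log2 1.99 ± 0.038 and 1.14 ± 0.037, adjusted p = 8.93e-41 and 6.42e-31). The fall of Gsdmd in M2 CM (log2 -0.13, adjusted p = 0.0067) was lost without the third M2 CM library (adjusted p = 0.154; range over the alternatives 0.000104 to 0.154). Casp4, which cuts gasdermin D on intracellular lipopolysaccharide, rose in TAM CM (log2 2.31 ± 0.082), M2 CM (0.74 ± 0.096) and M1 CM (3.19 ± 0.077), with adjusted p of 1.54e-29, 1.12e-08 and 1.84e-36. Pycard, the adaptor that joins sensors to caspase-1, had at most 5 counts in any library.

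Of the IL-12 and IL-23 partners 5 of 13 were tested, with 1 higher and 4 lower in TAM CM (35.1% and 34.9% of all tested genes), 2 and 2 in M2 CM (21.0% and 18.5%), and 3 and 0 in M1 CM (27.7% and 25.6%). They had medians on the log2 scale of -0.44 in TAM CM, 0.036 in M2 CM and 0.17 in M1 CM. The M2 CM count of higher genes was 1 with library sizes alone and without the first M2 CM library, and the TAM CM count of higher genes was 2 with no filter. Stat3, the main transcription factor downstream of the IL-23 receptor, averaged 132 ± 4.13 CPM in TAM CM, 165 ± 4.47 CPM in M2 CM, 326 ± 10.9 CPM in M1 CM and 153 ± 1.33 CPM in M0 CM. It fell in TAM CM (log2 -0.22 ± 0.036, adjusted p = 4.87e-07) and rose in M1 CM (log2 1.09 ± 0.034, adjusted p = 2.36e-31). Jak2, the kinase on IL23R, rose in TAM CM (log2 0.26 ± 0.062, adjusted p = 0.000208) and in M1 CM (log2 1.27 ± 0.058, adjusted p = 1.27e-24). Il6st, the gp130 chain shared by the IL-6 group of cytokines, fell to 255 ± 9.89 CPM in TAM CM, against 357 ± 8.47 CPM in M0 CM (adjusted p = 1.68e-18), and rose to 619 ± 1.49 CPM in M2 CM (adjusted p = 2.37e-26).

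Genes that IL-1 is known to induce, many of which other stimuli of NF-kappa B or STAT3 induce too, were tested for 20 of 22. In TAM CM 11 were higher and 5 lower (35.1% and 34.9% of all tested genes), in M2 CM 10 and 2 (21.0% and 18.5%), and in M1 CM 20 and 0 (27.7% and 25.6%), with medians on the log2 scale of 0.74 in TAM CM, 0.22 in M2 CM and 2.34 in M1 CM. Il6 and Mmp3, among the 20, passed the filter only through M1 CM, where they are high. Il6 had 28, 31 and 20 counts there and 0 to 3 in every other library. The M1 CM count and median therefore give no support of their own. The M2 CM count was 9 and 2 without the third M2 CM library, and 1 gene was lower without the second M0 CM library. Saa3, an acute phase gene, averaged 26.6 ± 0.854 CPM in TAM CM, 0.129 ± 0.0312 CPM in M2 CM, 19.2 ± 3.14 CPM in M1 CM and 0.440 ± 0.233 CPM in M0 CM. Lcn2, an iron-sequestering lipocalin, averaged 18.2 ± 2.51 CPM in TAM CM, 0.549 ± 0.214 CPM in M2 CM, 24.5 ± 1.27 CPM in M1 CM and 0.704 ± 0.215 CPM in M0 CM. Lif, a cytokine of the IL-6 group, rose in all 3 media, to 54.1 ± 0.919 CPM in TAM CM, 39.9 ± 0.395 CPM in M2 CM and 60.5 ± 4.53 CPM in M1 CM, against 17.2 ± 0.334 CPM in M0 CM. Vcam1, an adhesion molecule, fell in TAM CM (log2 -0.57 ± 0.053, adjusted p = 1.29e-11) and rose in M1 CM (log2 1.85 ± 0.046, adjusted p = 1.61e-27). The fall of Saa3 in M2 CM (log2 -1.72, adjusted p = 0.0102) was lost without the second M0 CM library (adjusted p = 0.118; range over the alternatives 0.00454 to 0.118).

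**Figure D4:**
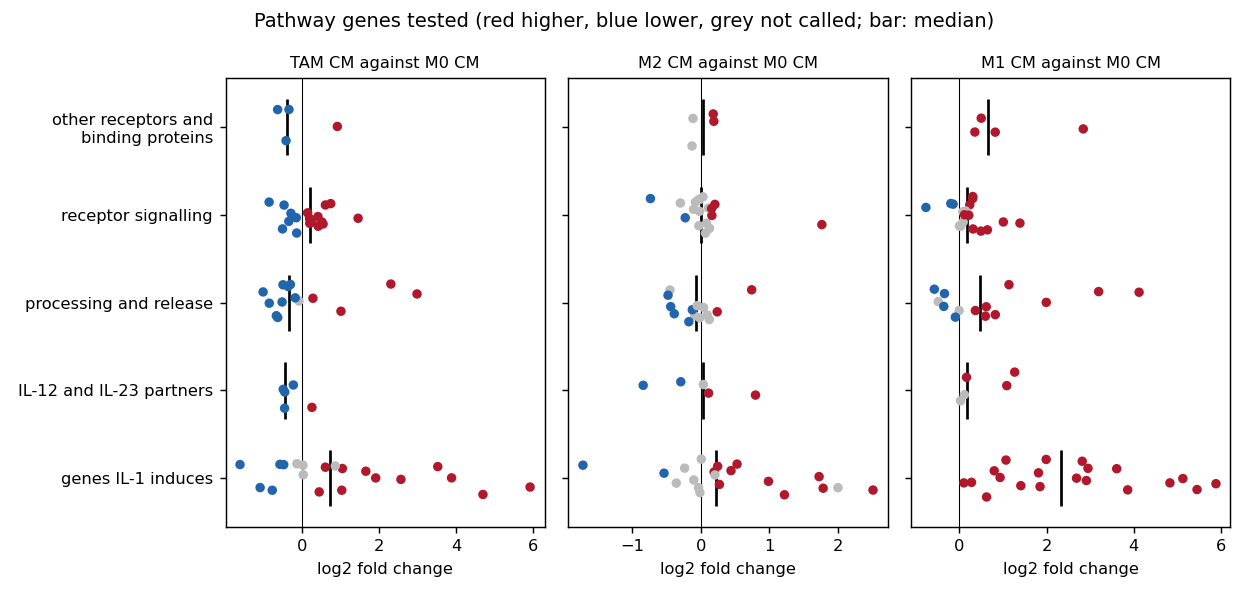
Log2 fold change against M0 CM of the tested genes in 5 pathway lists, one panel for each medium with its own axis; red points are called higher, blue lower, grey not called, and the upright bar is the list's median. In M1 CM all 20 tested genes that IL-1 is known to induce lie above 0, with a median of 2.34. Some of these 20 passed the filter only through M1 CM.

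Markers of further cell types were also read. The 7 T and innate lymphoid cell markers summed to 11.84 to 13.24 CPM in TAM CM and 18.76 to 20.48 CPM in M2 CM. They summed to 14.12 to 16.33 CPM in M1 CM and 25.31 to 26.65 CPM in M0 CM. Nearly all of the sum was Gata3. Rora had 5 counts in TAM CM, 3 in M2 CM, 6 in M1 CM and 1 in M0 CM. Each of the others had at most 2 counts over a group. The 7 neutrophil markers reached at most 2.66 CPM and the 4 endothelial markers at most 1.175 CPM. The 8 fibroblast markers summed to 1148 to 1203 CPM in TAM CM, 1471 to 1496 CPM in M2 CM, 1444 to 1542 CPM in M1 CM and 2505 to 2651 CPM in M0 CM, a sum set by collagen genes. Other members differed from it: Dcn averaged 16.9 ± 1.38 CPM in TAM CM, 4.10 ± 0.403 CPM in M2 CM, 12.5 ± 0.601 CPM in M1 CM and 2.82 ± 0.526 CPM in M0 CM, and Pdgfra averaged 319.7 ± 14.55 CPM in TAM CM, 168.3 ± 3.6 CPM in M2 CM, 262.9 ± 10.0 CPM in M1 CM and 236.4 ± 4.73 CPM in M0 CM. The part of these markers in the results was not tested.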

How the data were processed

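RNA sequencing libraries of SCC7 cells were grouped by their titles, with 3 for each of 4 media. The authors deposited raw counts per Ensembl gene, with no scaling. Per the submitters' processing notes, the tool was HISAT2 2.0 and the build mm10. Which program, annotation and strand rule gave the counts is not stated in the sources used here. Of 55487 genes, 55141 were matched by identifier to GENCODE M21 (GRCm38), which gave symbols, positions and exon lengths.

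The analysis used edgeR 4.0.16 in R 4.3.3: filterByExpr kept 14509 genes (those removed held 0.0815% of counts), TMM scaling, glmQLFit (robust) with 1 mean for each group, and glmQLFTest, whose p-values were adjusted by Benjamini-Hochberg over the genes tested. SE was taken as log2 fold change divided by the root of F, and for a group with few counts it understates the counting error. Totals of 18996937 to 22596630 counts make 1 CPM about 20.8 counts. Intervals of count ratios are exact binomial at 95%, on totals, and cover counting error only. Floors are 3 counts over a group.

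The genes, pathway lists and marker lists were chosen with earlier results of these data known. From each list the text names up to 4 genes called against M0 CM with at least 2 CPM in the higher group, by smallest p, and the 3 genes most alike each tested gene by Pearson's r (log2 CPM, prior count 2), without predicted genes. 1 gene so named is not reported here. Il12b, Il12a, Il23r, Il1r2, Il18r1 and Pycard are named beside this rule for their place in the pathway or cluster. Il6 and Mmp3 are named for how they passed the filter. The 19 alternatives were DESeq2 1.42.0, other scalings and filters, fits of just 2 groups, a replicate block, and each library left out. For list genes and for the third M2 CM library they were added with the values known. Each step was first tested on simulated counts. Figures were drawn with matplotlib 3.10.9.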

Additional observations from a re-analysis of the deposited data

How the results depend on the processing

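Over the 19 alternatives and the 42 member comparisons tested, 786 values kept their side of the threshold, 8 lost a call and 4 gained one. Of the called values 0 changed sign. Some values that were not called did change sign, such as Il18 in TAM CM against M2 CM (log2 -0.178 to 0.069). The calls lost or gained stand beside their results and concern Il1rn, Il18, Il33 and Il1r1. The number of the 9 genes called in M2 CM against M1 CM was 5 and ranged from 3 to 5 with a library left out, with 3 without the first M1 CM library, which leaves 2 libraries in M1 CM. The labels do not say that replicate numbers pair the libraries, and no strong pairing was seen. Same-numbered libraries of different media had correlations of deviations from -0.029 to 0.051, and none of 18 pairs was over 0.1. However, 8 of 12 libraries correlated best with their own number, so a weak pairing is not excluded. With the replicate block the genes called were 5 in TAM CM against M0 CM, 4 in M2 CM against M0 CM, 3 in M1 CM against M0 CM, and 5 in each comparison between the other media, as without it. For pathway genes, 8 of 570 counts of list genes called in either direction moved by over 1.5 times, all of the other receptors in M2 CM against M0 CM. With higher and lower calls counted apart, 7 counts of other lists moved too, among them signalling genes lower in TAM CM against M1 CM (4 without the second TAM CM library, in place of 7) and higher in M2 CM against M1 CM (1 without the third M2 CM library, in place of 2). Depth limits Il1a, Il1b and Il12b, and Il1rn outside TAM CM, where a library had 0 to 14 counts.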
